A study of Rattus norvegicus with 20 samples.

Results

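Brain endothelial and pericyte genes were followed by mRNA sequencing in the hippocampus of 20 rats, all female and aged 4 months. The set held 10 genes, found by symbol among the 17168 genes of each table: Cldn5, Pecam1, Cdh5, Flt1, Kdr, Tek, Slc2a1 and Abcb1a of the endothelium, and Pdgfrb and Rgs5 of pericytes. The genotype comparison held 5 untreated wild-type rats (WTNT) and 5 untreated TgF344-AD rats (TGNT), a Fischer 344 line that carries human transgenes under the prion promoter, among them amyloid precursor protein with the Swedish mutation. The treatment comparison held 4 other untreated TgF344-AD rats (TGNT) and 6 TgF344-AD rats given diazoxide, an opener of ATP-sensitive potassium channels, together with dibenzoylmethane from day 52 of age until the endpoint (TGTR). Each rat gave 1 library, and all were perfused with cold buffer before dissection, a step that flushes blood from the vessels. The 2 comparisons used different rats and were scaled separately, so no level was compared between them.

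The blood-brain barrier is formed by endothelial cells that are sealed to each other by tight and adherens junctions and that move nutrients in and drugs out through dedicated transporters. Pericytes lie on the outer face of the same capillaries, are recruited by platelet-derived growth factor from the endothelium, and help keep the barrier closed. Vascular endothelial growth factor and angiopoietin receptors on the endothelium set vessel growth and quiescence. In bulk tissue, fewer cells of a type and less RNA per cell cannot be told apart.

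Depth set the precision of each value. Library totals ran between 5848458 and 9926088 per WTNT rat and between 6610498 and 8117561 per TGNT rat of the genotype comparison, and between 11151973 and 13481985 per TGNT rat and between 9215039 and 14175594 per TGTR rat of the treatment comparison. Totals did not differ detectably between the groups of either comparison (exact permutation test, two-sided, p = 0.706 and p = 0.662). Each of the 10 genes was well above the counting floor, from 53 counts for Cdh5 in its lowest library to 1529 counts for Slc2a1 in its highest. Abcb1a had fractional estimated counts in every rat, so that some of its reads were shared with another gene, and its values are uncertain for that reason, while the other 9 genes had whole counts in all rats. Levels are given as RPM, the deposited read signal scaled by TMM factors.

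App, the rat gene to which the amyloid precursor protein transgene is counted, checked the genotype labels. It measured 1091, 1103, 1160.0, 1031 and 1123 RPM in WTNT rats and 2364, 2227, 2202, 2071 and 2071 RPM in TGNT rats. Every TGNT rat lay above every WTNT rat, and the fitted log2 ratio was 1.00 (SE 0.056; adjusted p = 2.45e-07, quasi-likelihood test of edgeR with Benjamini-Hochberg adjustment over all genes). In the treatment comparison, where both groups carry the transgenes, App lay at 2216, 2573, 2611 and 2511 RPM in TGNT rats and between 2299 and 2757 RPM, with a median of 2538 RPM, in TGTR rats. The tissue label was not tested, since the genes of hippocampal subfields that were listed are also made in other brain regions.

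Libraries of the TGTR group stood apart in tissues that border the hippocampus. The summed level of 12 choroid plexus genes was 3879 RPM in TGTR rat 5 and 310.1 RPM in TGTR rat 6, against 98.7 to 144 RPM in the other 4 TGTR rats and 88.2 to 138 RPM in TGNT rats. Ttr (transthyretin) led the list in TGTR rat 5 only, and Enpp2, which oligodendrocytes also make, led it in the other 9 rats. Ttr measured 2501 RPM in TGTR rat 5, 108 RPM in TGTR rat 6 and at most 11.7 RPM in TGNT rats. TGTR rat 5 also held 855 RPM over 10 meningeal fibroblast genes, led by Igf2, against 78.6 to 111 RPM in the other TGTR rats, and 295 RPM over 8 arterial smooth muscle genes, led by Myh11, against 77.8 to 95.4 RPM. The 6 blood genes, led by Hba1, summed to 1751 RPM in TGTR rat 4 and to between 240.0 and 336 RPM in the other TGTR rats. Meninges, choroid plexus and arteries hold endothelium and mural cells of their own, and the part of these tissues in the results below was not tested. The fold changes of the 10 genes and the medians of the vascular lists are therefore given with and without TGTR rat 5, and with TGTR rats 5 and 6 left out together, an alternative that was chosen after the data were seen.

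**Figure D1:**
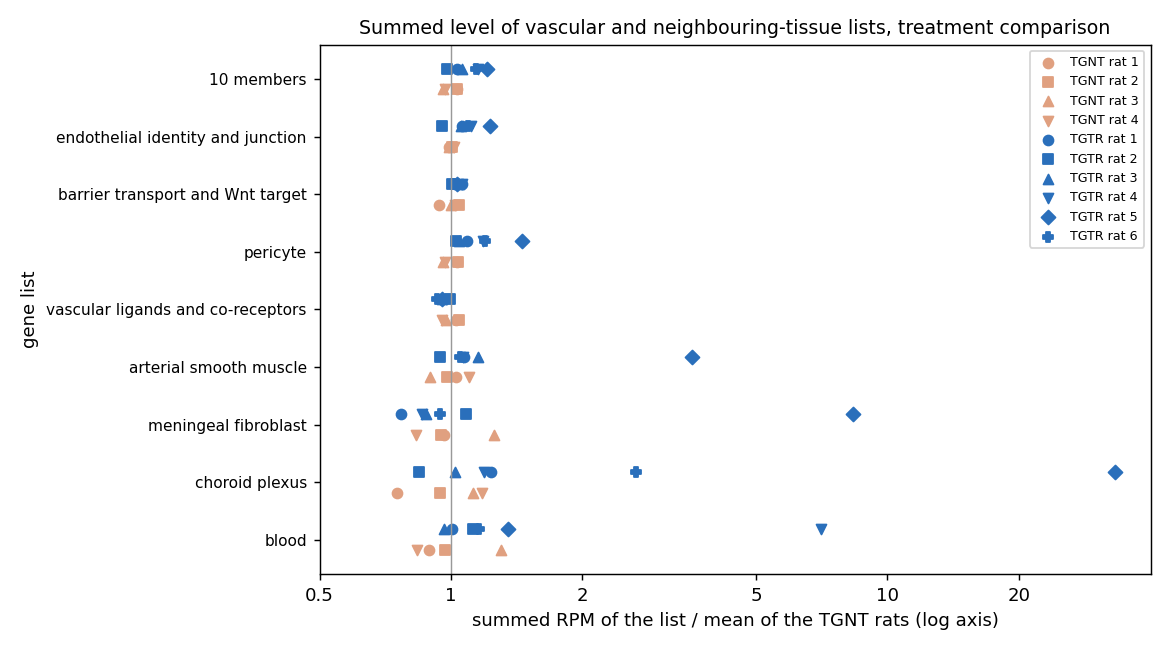
Summed RPM of each gene list in every rat of the treatment comparison, divided by the mean of the TGNT rats, on a log axis. Orange symbols are TGNT rats and blue symbols TGTR rats, with a marker shape for each rat. TGTR rat 5 (diamond) lies at 33.2 for the choroid plexus list and at 1.21 for the 10 endothelial and pericyte genes.

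The first question was whether the transgenic genotype alone goes with a different level of these genes at 4 months of age. TGNT and WTNT rats had overlapping levels of all 10 genes. Tek, Flt1, Abcb1a, Pdgfrb and Rgs5 had a higher fitted level in TGNT rats and Cldn5, Pecam1, Cdh5, Kdr and Slc2a1 a lower one, and the fitted log2 fold changes ran from -0.15 for Pecam1 to 0.15 for Rgs5. The quasi-likelihood test of edgeR called 0 of the 10 genes (adjusted p below 0.05 with a change of 1.5 times or more), where 2 of all 17168 genes (0.0116%), App among them, were called. At an unadjusted p under 0.05 the count was also 0 of 10, against 1.99% higher and 1.9% lower among the 11356 genes that averaged 10 or more counts. The likelihood ratio and exact tests of edgeR, DESeq2 and limma-trend also gave 0 of 10 at either threshold. With 5 of 10 genes higher, the split was near that of the same 11356 genes, 52.4% of which were higher, and the median log2 fold change was 0.02 for the 10 genes and 0.01 for all of them. The groups did not overlap for 0 of the 10 genes, against 0.335% of genes that were higher and 0.317% that were lower in every TGNT rat. The 95% confidence intervals bound what could have been missed, the widest being that of Pecam1, from -0.46 to 0.16, and the narrowest that of Slc2a1, from -0.15 to 0.12. Leaving out TGNT rat 1 brought a single gene, Rgs5, to an unadjusted p under 0.05.

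The second question was whether treatment with diazoxide and dibenzoylmethane goes with a different level in transgenic rats. All 10 genes had a higher fitted level in TGTR than in TGNT rats, with log2 fold changes from 0.06 for Slc2a1 to 0.35 for Rgs5 and a median of 0.15, while 50.1% of the 12029 genes that averaged 10 or more counts were higher and their median was 0.00. The quasi-likelihood test of edgeR called 0 of the 10 genes, as it called 0 of all 17168 genes (0%), and the lowest adjusted p among the 10 was 0.957, for Rgs5. At an unadjusted p under 0.05 the count was 4 of 10, namely Rgs5, Kdr, Flt1 and Tek, all of them higher, against 3.9% of the 12029 genes that were higher and 2.24% that were lower. The likelihood ratio and exact tests of edgeR and DESeq2 gave the same count of 4 and limma-trend gave 2. None of these tests called a member, while over all genes the likelihood ratio test called 5, the exact test 4, DESeq2 3 and limma-trend 0. No gene of the set separated the groups, whereas 0.806% of the 12029 genes were higher and 0.648% lower in every TGTR rat.

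Single rats bore on these counts. Without TGTR rat 5 all 10 genes remained higher, the median log2 fold change was 0.09 and 3 genes had an unadjusted p under 0.05 (Rgs5, Kdr and Flt1). With TGTR rats 5 and 6 left out together, 8 of 10 were higher, the median was again 0.09, and Rgs5 alone had an unadjusted p under 0.05. Of the 12029 genes, 3.95% were higher and 2.62% lower at that threshold without TGTR rat 5. Without both rats the shares were 2.68% and 2.26%. The count of members was 1 without TGNT rat 3 and 1 without TGNT rat 4, Rgs5 in each case. It was 2 without TGNT rat 2, TGTR rat 1 or TGTR rat 4. Among all genes, the share higher at that threshold was 2.84%, 3.66%, 2.25%, 3.94% and 3.7% in these fits, in the same order. With all rats it was 3.9%.

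**Figure D2:**
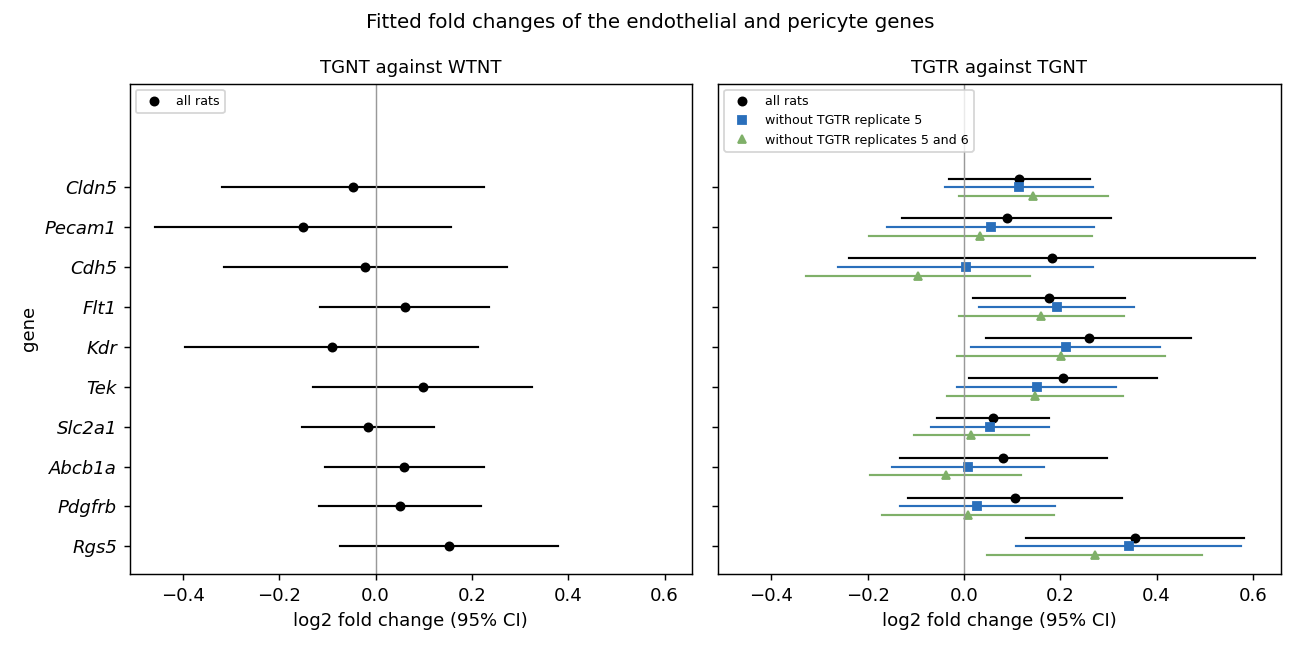
Fitted log2 fold changes of the 10 genes (points) with 95% confidence intervals (lines), for TGNT against WTNT at the left and TGTR against TGNT at the right. Black circles use all rats, blue squares leave out TGTR rat 5, and green triangles leave out TGTR rats 5 and 6. The genotype values lie on both sides of 0. The treatment values of all 10 genes lie above 0 with all rats, and those of Cdh5 and Abcb1a lie below 0 without TGTR rats 5 and 6.

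Cldn5 encodes claudin-5, the main claudin of brain endothelial tight junctions. It lay between 21.4 and 30.3 RPM in WTNT rats and between 19.0 and 29.96 RPM in TGNT rats of the genotype comparison. The ranges nearly coincided, and the log2 fold change was -0.05 (95% confidence interval -0.32 to 0.23). Among the rats of the treatment comparison it measured 39.4, 43.2, 36.9 and 39.6 RPM in TGNT rats and from 38.8 to 49.2 RPM, with a median of 42.9 RPM, in TGTR rats. TGTR rat 4 was the highest and not TGTR rat 5, and the log2 fold change of 0.11 (95% confidence interval -0.03 to 0.26) was the same to 2 decimals without TGTR rat 5 and 0.14 with TGTR rats 5 and 6 left out.

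Cdh5 encodes VE-cadherin, the cadherin of endothelial adherens junctions. It measured 9.78, 9.92, 14.1, 9.05 and 10.99 RPM in WTNT rats and 11.99, 8.90, 11.7, 10.1 and 10.2 RPM in TGNT rats, and the log2 fold change was -0.02 (95% confidence interval -0.32 to 0.27). In the treatment comparison it lay at 10.2, 8.48, 9.77 and 9.66 RPM in TGNT rats and at 7.97 RPM (lowest), 9.54 RPM (median) and 17.6 RPM (highest) in TGTR rats. The highest value belonged to TGTR rat 5 and the next, 12.01 RPM, to TGTR rat 6, while the other 4 TGTR rats lay among or below the TGNT rats. Its log2 fold change was 0.18 with all rats, 0.00 without TGTR rat 5 and -0.10 with TGTR rats 5 and 6 left out together. No other gene of the set moved as far with these 2 libraries.

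Pecam1 encodes an adhesion molecule of endothelial cell contacts that is also made by platelets and leukocytes. It ranged from 11.1 to 21.2 RPM in WTNT and from 12.7 to 16.6 RPM in TGNT rats, so that the wild-type rats held both the lowest and the highest value. In the treatment comparison it ranged from 12.5 to 14.7 RPM in TGNT rats and from 12.1 to 16.4 RPM, with a median of 14.9 RPM, in TGTR rats. The log2 fold change was 0.09 (95% confidence interval -0.13 to 0.31), with 4 of 6 TGTR rats above the highest TGNT rat and the other 2 among the lower values. Without TGTR rat 5 it was 0.06, and with TGTR rats 5 and 6 left out 0.03.

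Flt1 and Kdr encode VEGF receptors 1 and 2, of which Kdr carries most of the growth signal and Flt1 binds the ligand tightly and limits it. Flt1 measured 74.4, 94.1, 102, 79.9 and 96.2 RPM in WTNT rats and 93.4, 94.9, 98.7, 87.1 and 90.1 RPM in TGNT rats. The wild-type rats spread over both ends of the transgenic range, and the log2 fold change was 0.06 (95% confidence interval -0.11 to 0.24). Between TGNT and TGTR rats the values again overlapped, with Flt1 at 80.8, 78.9, 69.7 and 71.5 RPM in TGNT rats and 73.0 RPM (lowest), 84.7 RPM (median) and 94.1 RPM (highest) in TGTR rats. Of the 6 TGTR rats, 4 exceeded the highest TGNT rat, and TGTR rat 5, at 80.6 RPM, was not one of them. The log2 fold change was 0.18 (95% confidence interval 0.02 to 0.33, adjusted p = 0.964 with edgeR) with all rats, 0.19 without TGTR rat 5 and 0.16 with TGTR rats 5 and 6 left out together.

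Kdr measured 22.9, 33.8, 43.1, 23.7 and 31.2 RPM in WTNT rats and 27.7, 32.6, 29.7, 28.03 and 28.03 RPM in TGNT rats. The group means were 31.0 ± 8.27 RPM (SD, n = 5) and 29.2 ± 2.03 RPM (SD, n = 5), so that the wild-type rats were the more spread. For the treatment comparison Kdr lay at 25.9, 20.5, 20.3 and 19.6 RPM in TGNT rats and at 21.9 RPM (lowest), 25.6 RPM (median) and 30.3 RPM (highest) in TGTR rats. TGNT rat 1 stood apart from the other 3 TGNT rats, all of which lay below every TGTR rat. Fitted to all rats, the log2 fold change was 0.26 (95% confidence interval 0.05 to 0.47, adjusted p = 0.964 with edgeR), and 0.21 and 0.20 without TGTR rat 5 and with TGTR rats 5 and 6 left out.

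Tek encodes TIE2, the receptor for angiopoietins that keeps vessels quiescent. It measured 29.5, 37.4, 42.1, 26.5 and 36.6 RPM in WTNT rats and 38.0, 36.0, 37.6, 38.3 and 34.5 RPM in TGNT rats, a log2 fold change of 0.10 (95% confidence interval -0.13 to 0.32). As with Kdr, the wild-type rats spread further, with standard deviations of 6.33 RPM in WTNT and 1.59 RPM in TGNT rats. Within the treatment comparison Tek lay at 29.1, 26.1, 26.1 and 22.2 RPM in TGNT rats and at 26.6 RPM (lowest), 29.0 RPM (median) and 35.8 RPM (highest) in TGTR rats. The highest value was that of TGTR rat 5, and 3 of 6 TGTR rats exceeded the highest TGNT rat. The log2 fold change was 0.21 (95% confidence interval 0.01 to 0.40, adjusted p = 0.987 with edgeR) with all rats and 0.15 in each fit without TGTR rat 5.

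Promoters of 6 of the 10 genes were matched in RefSeq (GRCr8): Cldn5, Flt1, Kdr, Slc2a1, Abcb1a and Rgs5, but not Pecam1, Cdh5, Tek or Pdgfrb. The 250 bases before the start are printed for Flt1 (chr12:12333180-12333429), Kdr (chr14:32571813-32572062) and Rgs5 (chr13:84380827-84381076), all on the plus strand, since these 3 had an unadjusted p under 0.05 in the treatment comparison. Capitals mark AGGAAG, a sequence read by ETS factors, which are master regulators of endothelial genes, and GGGCGG, the GC box, each on either strand and with no overlap between them.
Flt1: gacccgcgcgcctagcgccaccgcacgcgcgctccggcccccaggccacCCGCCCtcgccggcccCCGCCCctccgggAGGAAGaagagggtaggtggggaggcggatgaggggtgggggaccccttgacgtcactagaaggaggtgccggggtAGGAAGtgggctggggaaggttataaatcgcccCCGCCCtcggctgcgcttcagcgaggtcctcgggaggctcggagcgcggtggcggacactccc
Kdr: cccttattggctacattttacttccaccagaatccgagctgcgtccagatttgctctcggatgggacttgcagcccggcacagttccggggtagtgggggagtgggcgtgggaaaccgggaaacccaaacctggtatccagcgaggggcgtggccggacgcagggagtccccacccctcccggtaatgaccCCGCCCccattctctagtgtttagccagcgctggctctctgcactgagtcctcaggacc
Rgs5: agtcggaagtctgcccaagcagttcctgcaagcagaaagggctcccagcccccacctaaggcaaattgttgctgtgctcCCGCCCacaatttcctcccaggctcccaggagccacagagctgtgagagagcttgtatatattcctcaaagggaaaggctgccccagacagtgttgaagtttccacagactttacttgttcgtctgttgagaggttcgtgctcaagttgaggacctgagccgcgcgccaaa

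GGGCGG or its reverse complement was in all 6 matched promoters, against 30.5% of the 33469 RefSeq promoters of the same length, with 3 matches each in Flt1 and Slc2a1 and a single match in each of the other 4. The match nearest to the start lay 35 bases before it in Slc2a1, 58 in Cldn5, 59 in Kdr, 63 in Flt1, 124 in Abcb1a and 171 in Rgs5. AGGAAG was in 1 of the 6, Flt1, which held it at 96 and 172 bases before the start, against 29.5% of all promoters. The GC content of the 6 windows ran from 54.0% in Abcb1a to 73.2% in Flt1. The motifs were chosen after the sequences were seen, and a match describes these letters only. Other sequences read by ETS factors were not searched, so a window without AGGAAG may still hold them.

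Slc2a1 encodes GLUT1, the glucose carrier of the barrier, which astrocytes also make. It lay between 79.7 and 94.5 RPM in WTNT and between 78.8 and 88.7 RPM in TGNT rats, and the log2 fold change of -0.02 had a standard error of 0.065. In the treatment comparison it measured 101, 113, 107 and 107 RPM in TGNT rats and between 103 and 121 RPM, with a median of 112 RPM, in TGTR rats. The groups overlapped widely, and the log2 fold change was 0.06 (95% confidence interval -0.06 to 0.18), 0.05 without TGTR rat 5 and 0.02 with TGTR rats 5 and 6 left out.

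Abcb1a encodes P-glycoprotein, the efflux pump that returns many drugs to the blood. It lay between 62.0 and 76.3 RPM in WTNT and between 63.0 and 78.5 RPM in TGNT rats, a log2 fold change of 0.06 (95% confidence interval -0.11 to 0.23). For Abcb1a in the treatment comparison the TGNT rats lay close together, from 49.1 to 52.9 RPM, and the TGTR rats ran from 42.8 to 68.3 RPM with a median of 53.1 RPM. TGTR rat 1 held the lowest value and TGTR rat 5 the highest. Abcb1a had a log2 fold change of 0.08 with all rats, 0.01 without TGTR rat 5 and -0.04 with TGTR rats 5 and 6 left out together.

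Pdgfrb encodes the receptor through which pericytes are recruited and held on capillaries. It lay between 28.8 and 36.8 RPM in WTNT and between 33.3 and 37.5 RPM in TGNT rats, a log2 fold change of 0.05 (95% confidence interval -0.12 to 0.22). In the treatment comparison it measured 49.8, 51.2, 44.9 and 47.0 RPM in TGNT rats and from 42.3 to 66.4 RPM, with a median of 51.2 RPM, in TGTR rats. TGTR rat 5 was again the highest, and the log2 fold change was 0.11 with all rats, 0.03 without it and 0.01 with TGTR rats 5 and 6 left out.

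Rgs5 encodes a regulator of G protein signalling that is a marker of pericytes. It measured 25.4, 30.7, 31.1, 27.99 and 23.9 RPM in WTNT rats and 25.2, 28.2, 34.5, 32.3 and 34.1 RPM in TGNT rats. TGNT rats 3, 4 and 5 lay above every WTNT rat and the other 2 among them, with a log2 fold change of 0.15 (95% confidence interval -0.07 to 0.38). With treatment, Rgs5 lay at 21.1, 17.6, 15.6 and 17.9 RPM in TGNT rats and at 19.3 RPM (lowest), 23.0 RPM (median) and 26.9 RPM (highest) in TGTR rats. All TGTR rats except rat 2 exceeded the highest TGNT rat, and the highest value was that of TGTR rat 6. Means were 18.02 ± 2.30 RPM (SD, n = 4) and 23.0 ± 2.66 RPM (SD, n = 6), and an exact two-sided permutation test of the means gave p = 0.0238, where the smallest p these group sizes allow is 0.00476. For the other members with an unadjusted p under 0.05 with edgeR, this permutation test gave p = 0.0667 (Flt1), 0.0571 (Kdr) and 0.0571 (Tek). For the remaining members it gave p from 0.162 (Cldn5) to 0.619 (Cdh5). These permutation p-values use the same rats as the fit and are not adjusted for the 10 genes. The log2 fold change of Rgs5 was 0.35 (standard error 0.105, 95% confidence interval 0.13 to 0.58, adjusted p = 0.957 with edgeR). It was 0.34 without TGTR rat 5 and 0.27 with TGTR rats 5 and 6 left out together, and in each of the 21 other fits of the treatment comparison it was higher with an unadjusted p under 0.05, though never past the adjusted threshold. The lowest adjusted p for Rgs5 in those fits was 0.254, and the fits reuse the same rats.

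**Figure D3:**
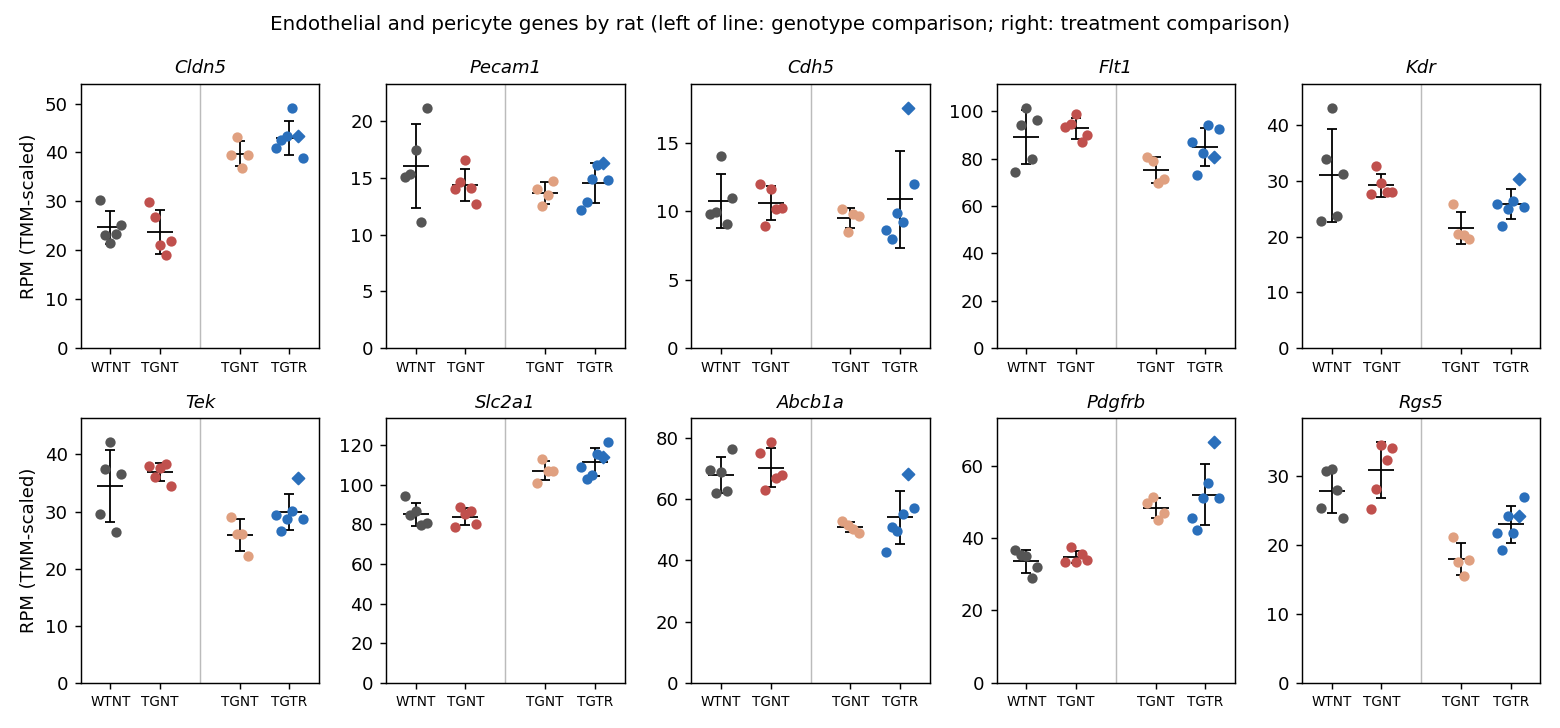
RPM of each of the 10 genes in every rat (points), with the group mean and SD (bars), for the genotype comparison left of the line and the treatment comparison right of it. The diamond is TGTR rat 5. The TGTR rats of Rgs5 run from 19.3 to 26.9 RPM and the TGNT rats beside them from 15.6 to 21.1 RPM.

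By rat, the 10 genes were also set against their mean level in the TGNT rats of the treatment comparison. Relative to the TGNT mean of each gene, the median ratio over the 10 genes was 1.02, 0.99, 1.09, 1.17, 1.34 and 1.13 in TGTR rats 1 to 6, and 1.05, 1.01, 0.96 and 0.98 in the TGNT rats. The number of genes above the TGNT mean was 6, 5, 8, 9, 10 and 9 of 10 in the TGTR rats and 8, 6, 3 and 2 of 10 in the TGNT rats, so that TGNT rat 1 equalled TGTR rat 3 and exceeded TGTR rats 1 and 2. The medians of TGTR rats 1 and 2 lay within the range of the TGNT rats, though in rat 1 Pecam1 and Abcb1a lay below every TGNT rat and Flt1, Kdr, Tek and Rgs5 above, and in rat 2 Cdh5 and Pdgfrb lay below. TGTR rat 5 had the highest median, and the largest single ratio was that of Cdh5 in TGTR rat 5, at 1.85. In the genotype comparison the median ratio to the WTNT mean ran from 0.88 to 1.104 in WTNT rats and from 0.97 to 1.06 in TGNT rats.

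Other genes of the same cells and pathways were listed, 84 in 5 lists, of which 79 were matched. Between TGNT and WTNT rats, 73 of them averaged 10 or more counts, 36 higher and 37 lower, with a median log2 fold change of -0.01. None was called, and at an unadjusted p under 0.05 there were 4 higher (5.48%) and 1 lower (1.37%), against 1.99% and 1.9% of all 11356 genes. The lower gene was Mfsd2a, the lipid carrier of barrier endothelium that holds down transcytosis, at 15.7, 12.1, 13.4, 11.6 and 14.02 RPM in WTNT rats and 11.1, 9.35, 10.1, 11.6 and 11.3 RPM in TGNT rats. Only the highest TGNT rat reached the lowest WTNT rat, and the fitted log2 ratio was -0.31 (SE 0.116; adjusted p = 1 with edgeR). The higher genes were Vtn, which encodes vitronectin and is made by pericytes, with a log2 fold change of 0.46, Myh11 and Myl9 of the smooth muscle contractile apparatus with 0.31 and 0.36, and Dll4, the Notch ligand of arterial and tip endothelium, with 0.74. Vtn lay at 8.29, 7.16, 12.7, 8.19 and 11.3 RPM in WTNT rats and 11.7, 13.6, 12.3, 13.9 and 13.7 RPM in TGNT rats, so that 3 TGNT rats exceeded all WTNT rats. Dll4 was spread within the transgenic group, at 6.99, 4.07, 8.37, 2.67 and 3.11 RPM, against 2.54 to 3.48 RPM in WTNT rats. Over the 20 other fits of this comparison its log2 fold change ran from 0.48 to 0.89, with an unadjusted p under 0.05 in 16 of them.

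By list, the median log2 fold change between TGNT and WTNT rats was -0.02 for 21 genes of endothelial identity and junctions, -0.05 for 14 barrier transport and Wnt target genes, 0.09 for 12 pericyte genes, -0.02 for 7 arterial smooth muscle genes and 0.07 for 19 vascular ligands and co-receptors. Vegfa, the main ligand of Kdr, had a log2 fold change of -0.17 (adjusted p = 1 with edgeR). Angpt2, the angiopoietin that antagonises TIE2, had -0.21 at 7 to 19 counts per library, the most negative value of the ligand list.

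Between TGTR and TGNT rats, 76 of the listed genes averaged 10 or more counts, 58 of them higher (76.3%) and 18 lower, with a median log2 fold change of 0.15. None was called, and at an unadjusted p under 0.05 there were 9 higher (11.8%) and 1 lower (1.32%), where all 12029 genes gave 50.1% higher, and 3.9% higher and 2.24% lower at that threshold. Without TGTR rat 5 the same 76 genes gave 52 higher, a median of 0.07, and 8 higher and 3 lower at an unadjusted p under 0.05 (against 3.95% and 2.62% of all genes). With TGTR rats 5 and 6 left out together they gave 47 higher, a median of 0.04, and 4 higher and 2 lower (against 2.68% and 2.26% of all genes). The count of 10 was 5 without TGNT rat 2 and 5 without TGNT rat 3, all of them higher. In these fits 2.25% and 2.84% of all genes were higher at that threshold, against 3.9% with all rats.

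The endothelial identity and junction list was higher for 20 of 22 genes, with a median of 0.16, which was 0.08 with 18 of 22 higher without TGTR rat 5, and 0.05 with 17 of 22 higher without TGTR rats 5 and 6. The 3 genes at an unadjusted p under 0.05 were 1 in the fit without both rats. Esam, an adhesion molecule of endothelial tight junctions, measured 13.8, 10.3, 9.84 and 12.7 RPM in TGNT rats and 12.5 to 16.8 RPM, with a median of 14.4 RPM, in TGTR rats. Its log2 fold change was 0.32, and 0.27 without TGTR rat 5 and 0.25 without TGTR rats 5 and 6. Robo4, an endothelial guidance receptor, measured 5.08, 4.37, 5.03 and 4.69 RPM in TGNT rats and 4.85 to 7.13 RPM in TGTR rats, of which 5 of 6 exceeded every TGNT rat. It had a fitted log2 ratio of 0.39 (SE 0.133; adjusted p = 0.964 with edgeR), and 0.37 both without TGTR rat 5 and without TGTR rats 5 and 6. Podxl, a sialomucin of the luminal face, had 0.19, and 0.15 in each of these fits.

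The pericyte list was higher for 13 of 13 genes, with a median of 0.25, which was 0.13 with 11 of 13 higher without TGTR rat 5, and 0.07 with 10 of 13 higher without TGTR rats 5 and 6. Abcc9 and Kcnj8 encode SUR2 and Kir6.1, the subunits of the ATP-sensitive potassium channel of pericytes and vascular smooth muscle. Abcc9 measured 15.2, 13.5, 12.3 and 14.4 RPM in TGNT rats and 15.5 RPM (lowest), 18.7 RPM (median) and 22.6 RPM (highest) in TGTR rats, so that the groups did not overlap. The log2 fold change was 0.45 (standard error 0.111, 95% confidence interval 0.21 to 0.69, adjusted p = 0.858 with edgeR), 0.43 without TGTR rat 5 and 0.39 with TGTR rats 5 and 6 left out. Kcnj8, at 20 to 36 counts per library, measured 1.753, 1.799, 1.803 and 1.933 RPM in TGNT rats and 1.938 to 2.841 RPM in TGTR rats, again without overlap but by the narrowest of margins, and its log2 fold change of 0.31 had a 95% confidence interval of -0.07 to 0.69. The counts of Abcc9, and of Mcam of the same list, were fractional in every rat, so that these values are uncertain as for Abcb1a. Kcnj8 was named for its pairing with Abcc9, after its values were seen. Overlap was not counted over the 76 listed genes that averaged 10 or more counts. Of all 12029 genes, 0.806% were higher in every TGTR rat. Mcam, an adhesion molecule of mural and endothelial cells, had a log2 fold change of 0.26, and 0.25 without TGTR rat 5 and 0.21 without TGTR rats 5 and 6. In the genotype comparison Abcc9 lay at 19.7, 23.6, 25.5, 19.97 and 18.2 RPM in WTNT rats and 20.7, 22.6, 20.2, 20.7 and 20.6 RPM in TGNT rats, a log2 fold change of -0.03.

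The arterial smooth muscle list had a median of 0.72 with all rats, 0.15 without TGTR rat 5 and 0.08 without TGTR rats 5 and 6, and Acta2, the smooth muscle actin, had 1.18, 0.42 and 0.46 in these fits. Acta2 lay at 45.6 RPM in TGTR rat 5 and between 7.46 and 9.93 RPM in the other TGTR rats, against 3.61 to 8.68 RPM in TGNT rats. Barrier transport and Wnt target genes had a median of 0.05, with 9 of 14 higher, 0.00, with 7 of 14 higher, without TGTR rat 5, and -0.00, with 6 of 14 higher, without TGTR rats 5 and 6. Among them the lactate carrier Slc16a1 (MCT1) had a log2 fold change of 0.14, and 0.17 and 0.20 in the fits without TGTR rat 5 and without both rats. The 20 vascular ligands and co-receptors were split 10 to 10 with a median of -0.02, and of -0.01 in each of these fits. Dll4 lay at 4.64, 3.598, 4.73 and 3.589 RPM in TGNT rats and from 4.85 to 6.46 RPM in TGTR rats, with no overlap. Of all 12029 genes, 0.806% were higher in every TGTR rat. The log2 fold change of Dll4 was 0.38, or 0.33 without TGTR rat 5 and 0.31 without both rats. Tgfbr2, a receptor for TGF-beta, had 0.29, or 0.20 and 0.18 in the same fits, and Nrp2, a semaphorin and VEGF co-receptor that neurons also make, had -0.19, or -0.15 in each. With all rats in, Angpt2 had the highest value of this list, 0.52 (95% confidence interval -0.21 to 1.25), a rank given for that fit only. It lay at 1.38 to 1.63 RPM in TGNT rats, 4.34 RPM in TGTR rat 5 and 1.21 to 2.21 RPM in the other TGTR rats. Vegfa had -0.04 (95% confidence interval -0.26 to 0.17) with all rats.

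Markers of other cells showed how the makeup of the libraries varied beside these genes. Summed over each list, the 8 microglia genes, led by Csf1r, lay between 302 and 330 RPM in TGTR rats and between 307 and 335 RPM in TGNT rats, and the 8 neuron genes, led by Map2, between 6459 and 7388 RPM and between 6969.6 and 7500.2 RPM. The 8 astrocyte genes, led by Slc1a2, lay between 4033 and 5087 RPM in TGTR rats and between 4423 and 4903 RPM in TGNT rats. TGTR rat 5 was the lowest of its group for microglia, astrocyte, neuron and oligodendrocyte genes alike. The 8 oligodendrocyte genes, led by Mbp, ran from 4679.9 to 7176 RPM in TGTR rats and from 4017 to 6306 RPM in TGNT rats. By gene, between TGTR and TGNT rats, 7 of 8 oligodendrocyte genes were higher, the median being 0.20 (0.25 leaving out TGTR rat 5). Without TGTR rat 5, 2 of them were higher at an unadjusted p under 0.05 with edgeR, against 3.95% of all 12029 genes. With all rats, and without TGTR rats 5 and 6, the count was 0. Of the astrocyte genes, 8 of 8 were lower with a median of -0.05 (4 of 8 lower leaving out TGTR rat 5), and 6 of 6 blood genes were higher with a median of 1.03. The blood genes summed to 7.05 times the TGNT mean in TGTR rat 4 and to between 0.97 and 1.35 times in the other TGTR rats. Microglia genes were 2 of 8 higher, neuron genes 3 of 8 and hippocampal subfield genes 1 of 7, with medians of -0.03, -0.01 and -0.11, and without TGTR rat 5 they were 5 of 8, 4 of 8 and 3 of 7 higher. Of the meningeal fibroblast genes, 8 of 9 were higher with a median of 1.02, whereas without TGTR rat 5 7 of 9 were lower with a median of -0.25. Between TGNT and WTNT rats, 8 of 8 microglia genes were higher with a median of 0.09 and 7 of 9 meningeal fibroblast genes with a median of 0.16. None of the genes of these lists had an unadjusted p under 0.05 with edgeR, and 52.4% of all 11356 genes were higher. In that comparison 7 of 7 hippocampal subfield genes were lower with a median of -0.14. There Mbp had a log2 fold change of -0.38 (adjusted p = 1 with edgeR), and 7 of 8 oligodendrocyte genes were lower in TGNT rats. Some choroid plexus genes averaged at least 10 counts only through TGTR rat 5, so p-values of this list were not counted. Sostdc1, for one, lay between 0 and 0.184 RPM in TGNT rats and at 48.5 RPM in the highest TGTR rat. With TGTR rats 5 and 6 left out, Ttr had a log2 fold change of -2.55 and Enpp2 one of 0.21. The part of these shifts in the levels of the endothelial and pericyte genes was not tested.

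Across rats, the genes of the set varied together to different degrees. Each gene's log2(RPM + 1), with group means removed, was correlated over the 10 rats of a comparison with the mean of the 10 genes after standardization, a description that shares libraries and scaling between its points and that counts each gene in the mean it is compared with. Pearson r was 0.80 and 0.81 for Kdr in the genotype and the treatment comparison, 0.90 and 0.76 for Tek, 0.83 and 0.74 for Pecam1, and 0.74 and 0.77 for Cdh5. Pdgfrb had 0.56 and 0.95, and Flt1 0.75 and 0.56, the latter being 0.90 without TGTR rat 5. Rgs5, the gene with the lowest unadjusted p between TGTR and TGNT rats, had 0.14 and 0.67, and Cldn5 had -0.10 and 0.31, the lowest of the 10 in each comparison. Abcb1a had 0.45 and 0.80 and Slc2a1 0.31 and 0.53. Without TGTR rat 5 the treatment values were 0.71 for Kdr, 0.59 for Tek, 0.67 for Pecam1, 0.64 for Cdh5, 0.92 for Pdgfrb, 0.74 for Rgs5, 0.67 for Abcb1a, 0.54 for Slc2a1 and 0.30 for Cldn5, which remained the lowest.

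Over 11332 other genes, the 10 most like the mean of the set, by the lower r of the 2 comparisons, were Gcom1 (0.82), Slco1a2 (0.81), Actn4, Gpr116, Hivep1, Cyyr1, RGD1560884, Smoc1, Esrrg and Akap7 (0.76), with the remaining genes between these values. Slco1a2 names organic anion carriers, of which Slco1a4 is the one of rat brain capillaries, and the symbol is listed as a synonym of both Slco1a4 and Slco1a5 in the GRCr8 gene table. Gpr116 is an adhesion receptor of endothelium now named Adgrf5. Of the listed endothelial identity and junction genes, 3 of 21 were among the top 50 (14.3%), against 0.441% of all genes, and their median r was 0.35, against -0.25 over all genes. The median was 0.18 for 12 pericyte genes, 0.155 for 14 barrier transport and Wnt target genes, 0.08 for 19 vascular ligands and co-receptors and -0.11 for 7 arterial smooth muscle genes. Lists of other cells also lay above the median of all genes, at 0.13 for 5 blood genes, 0.03 for 2 choroid plexus, -0.03 for 9 meningeal, -0.03 for 8 astrocyte, -0.05 for 8 neuron and -0.13 for 8 oligodendrocyte genes, and 8 microglia genes had -0.27.

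**Figure D4:**
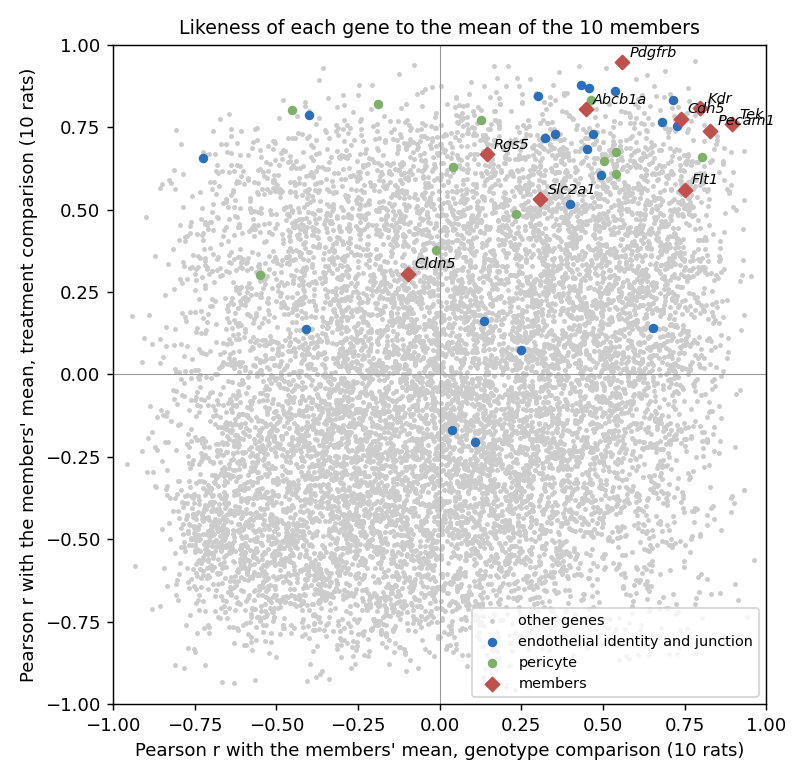
Pearson r of each gene's log2(RPM + 1), group means removed, with the mean of the 10 standardized genes, over 10 rats of the genotype comparison (horizontal) and 10 rats of the treatment comparison (vertical). Red diamonds are the 10 genes, blue points endothelial identity and junction genes, green points pericyte genes and grey points all others. Kdr lies at 0.80 and 0.81, and Cldn5 at -0.10 and 0.31.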

How the data were processed

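Libraries of stranded poly(A) mRNA were made by the study, a single library per rat. The submitters' processing notes name bcl2fastq 2.17, Bowtie2 2.1.0, RSEM 1.2.15, edgeR and the build rn6. The authors deposited estimated counts per gene symbol, not normalized, and RPM, a signal scaled by TMM factors within each table. Here estimated counts were rounded and fitted per table with edgeR 4.0.16 (quasi-likelihood test, TMM, all 17168 genes, no filter, two-sided, Benjamini-Hochberg over all genes). A check of the fit on simulated data planted changes larger than those of the 10 genes, so it does not bear on changes of their size. limma 3.58.1, DESeq2 1.42.0 and R 4.3.3 served the alternatives. Confidence intervals are at 95% for the fitted log2 fold change between groups, estimated from the spread between rats, and do not give the range of single rats. No pair of rats agreed within sampling noise, and columns of no sample numbered 0. Named genes were the 10 members, App, the most abundant or most shifted genes of lists, and the 10 genes most like the members. Kcnj8 and Vegfa were named for their pairing with Abcc9 and Kdr. Listed genes outside the choroid plexus list were also named at 10 or more counts on average with an unadjusted p under 0.05. The second called gene of the genotype comparison is not reported here. The members and lists were chosen with earlier results of these data known.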

Additional observations from a re-analysis of the deposited data

Results flagged for a closer look

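A rat was singled out where its gap to the nearest rat was over the 95% critical share of the group's range, a rule that chance meets in about 1 of 20 groups. Among the 10 endothelial and pericyte genes in 4 groups, 1 of 40 sets of values met it: Kdr was 25.85 RPM in TGNT rat 1 of the treatment comparison, and the next value was 20.5 RPM. Among the summed gene lists, 8 of 52 did, each rat being the highest or lowest of its own group. TGTR rat 5 was the highest for arterial smooth muscle genes at 294.6 RPM, choroid plexus genes at 3879 RPM and meningeal fibroblast genes at 855.1 RPM, and the lowest for microglia genes at 302.2 RPM. TGTR rat 4 was the highest for blood genes at 1751 RPM. TGNT rat 2 of the genotype comparison was the highest of the TGNT rats for pericyte genes at 187.0 RPM and for arterial smooth muscle genes at 107.5 RPM. TGNT rat 3 of the treatment comparison was the lowest for microglia genes at 307.3 RPM.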

How the results depend on the processing

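No endothelial or pericyte gene was called in any fit. The count of members at an unadjusted p under 0.05 between TGTR and TGNT rats, 4 with all rats, was 2 with limma-trend on log2(RPM + 1) and on log2(RPM + 0.1), and 1 with TGTR rats 5 and 6 left out together, and that of the other vascular genes, 10 with all rats, was 6 in each of these fits. Scaling by library size only gave 5 members, with Cldn5 added, and 11 other vascular genes. In that fit 6.83% of all genes were higher at that threshold, against 3.9% in the main fit. The share was 4.12% and 4.16% with limma-trend and 2.68% without both rats. Upper quartile scaling gave 3 members. Leaving out each rat in turn gave 1 to 4 members and 5 to 12 other vascular genes, and between TGNT and WTNT rats 0 to 1 members and 4 to 7 other vascular genes. The median log2 fold change of the members stayed between 0.09 and 0.19 in the treatment and between -0.03 and 0.05 in the genotype comparison over all fits. Of 210 fold changes of members in the other fits of the treatment comparison 206 kept their sign, and 191 of 200 did so in the genotype comparison. The cause of these shifts was not tested, and some fits held fewer rats. Genes under about 10 counts could show only large differences at this depth.

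Rats shared replicate numbers in the labels only as numbers. Deviations of rats with the same number correlated with r of 0.34, -0.11, 0.16, 0.13 and -0.21 in the genotype comparison and -0.58, 0.00, -0.06 and 0.14 in the treatment comparison, and not every rat correlated best with its own number. With the replicate block, which in the treatment comparison keeps rats 1 to 4 of each group, members called were 0 and members at an unadjusted p under 0.05 were 0 in the genotype and 1 in the treatment comparison. Other vascular genes at an unadjusted p under 0.05 were then 6 and 5, and 8 of 10 members were higher in TGTR rats. Of all genes, 2.4% and 1.69% were higher at that threshold with the block, against 1.99% and 3.9% without it.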
